A study of Homo sapiens with 6 samples.

Results

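The genes described here take part in, or are linked to, the supply and recycling of S-adenosylmethionine (SAM), the methyl donor of the m6A writers METTL3 and METTL14. The members are METTL16, MAT2A, MAT2B, AHCY, AHCYL1, MTR, MTRR and MTAP, taken by their Ensembl identifiers from the table of read counts. They are 8 of 61661 rows, and 7 of them were among the 17686 genes that passed the filter on low counts. RNA was sequenced from K562, an established line of chronic myeloid leukemia in blast crisis. The control cells (shCTR, labelled WT) carried lentivirus with a nonsense sequence, shMETTL3 cells carried lentivirus with an shRNA against METTL3, and shMETTL14 cells had METTL14 knocked down with an shRNA whose sequence and vector are not given in the sources used here. There were 2 libraries per group and 6 in all. According to the paper's methods, the shCTR and shMETTL3 cells were stable lines selected with puromycin, and single clones are not mentioned. No label says that the libraries of a group came from separate cultures, so p-values measure the spread between these libraries, which may be technical.

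Methionine adenosyltransferase makes SAM from methionine and ATP. Every methyl transfer turns SAM into S-adenosylhomocysteine, an inhibitor of methyltransferases that AHCY hydrolyses to homocysteine, and homocysteine is methylated back to methionine. METTL16 ties this cycle to RNA methylation. It is an m6A methyltransferase for U6 snRNA and for hairpins in the MAT2A 3'UTR, and its occupancy of those hairpins is known to promote splicing of the last MAT2A intron when SAM is scarce.

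Library totals ran from 19292574 to 20115304 counts. Levels are given below as CPM, the counts of a gene per 1000000 counts of its library, with edgeR's TMM factors, and with SD over n = 2. METTL3 was at 90.5 and 90.3 CPM in the shCTR libraries and at 52.5 and 46.7 CPM in the shMETTL3 libraries. These groups did not overlap, as was so for 56.0% of all genes tested. METTL14 was at 33.2 and 34.2 CPM in shCTR and at 19.1 and 20.6 CPM in shMETTL14. The log2 fold changes were -0.87 (edgeR adjusted p = 3.44e-07) and -0.76 (edgeR adjusted p = 1.40e-05), so both transcripts were reduced, not removed. Erythroid markers of K562 summed to between 36610 and 42192 reads per library, with the highest sums in shMETTL3, and all 9 genes of that list had reads. The sum of 6 T and B cell markers was 118 to 124 reads in shCTR, 175 to 193 in shMETTL3 and 133 to 144 in shMETTL14. Markers of monocytes (4 genes) summed to 4 to 5 reads in shCTR, 12 in shMETTL3 and 12 to 18 in shMETTL14, and CD14 had at most 3. The labels name a pleural effusion, while the libraries are of the cultured K562 line. Of 5 mesothelial and epithelial genes, which an effusion could hold, UPK3B, CALB2 and CDH1 had no read. EPCAM carried nearly all of the sum of the 5 (1052 to 1091 reads in shCTR, 733 to 742 in shMETTL3 and 814 to 832 in shMETTL14). The part of these markers in the results below was not tested.

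MAT2A (ENSG00000168906) encodes the catalytic subunit of the methionine adenosyltransferase of non-hepatic cells. It lies on the plus strand of chromosome 2 from 85539165 to 85545280 (GENCODE release 29, GRCh38). The METTL16 motif was searched as TACAGAGAA, 9 nt long, and no other form of it was searched. The stretches below show each place where it occurs in the 3'UTR of the longest coding MAT2A transcript, ENST00000306434.7. Each window has 29 nt, is written 5′ to 3′ on the mRNA strand with T for U, and has the motif in capitals. All lie in the last exon.
MAT2A site 1, chr2:85543802-85543830: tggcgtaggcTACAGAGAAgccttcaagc
MAT2A site 2, chr2:85544589-85544617: tgtgatgtcaTACAGAGAAgtcacagggc
MAT2A site 3, chr2:85544774-85544802: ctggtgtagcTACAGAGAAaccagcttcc
MAT2A site 4, chr2:85544889-85544917: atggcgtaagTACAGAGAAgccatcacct
MAT2A site 5, chr2:85545112-85545140: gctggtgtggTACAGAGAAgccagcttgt

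The motifs started at positions 40, 827, 1012, 1127 and 1350 of a 3'UTR of 1508 nt. The same search of the mRNA strand was run on the 3'UTR of the longest coding transcript of 19487 genes. The motif was found in 309 of them, which is 1.59%. Of these, 301 had 1 match, 7 had 2 and 1 had more, MAT2A with 5. None of the other 7 members had a match, although the 3'UTRs of MTR and MTAP were 6337 and 6452 nt long. A match describes the letters in this window and is not a measured site.

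**Figure D1:**
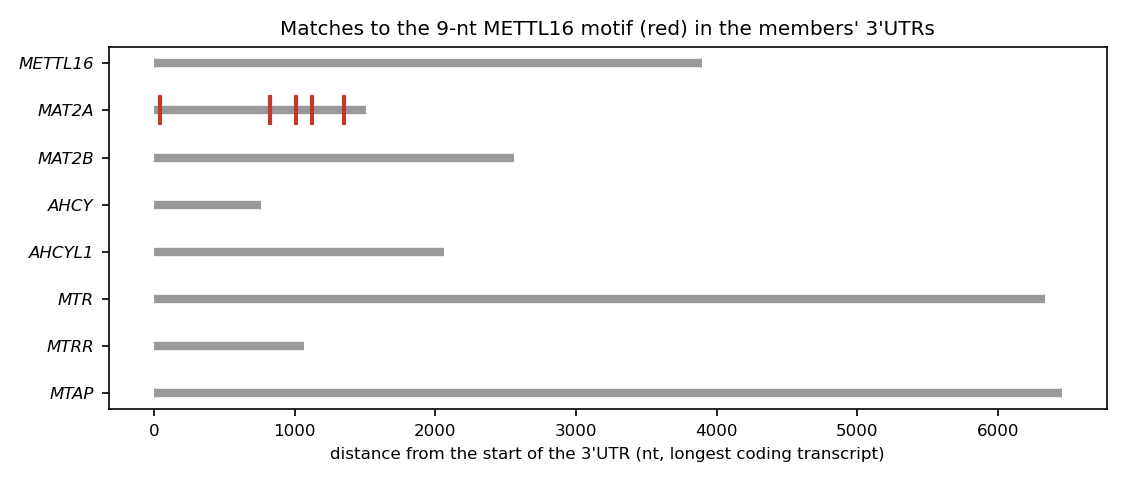
The 3'UTR of each member's longest coding transcript is drawn as a grey bar from its start, with the distance in nt on the horizontal axis and red marks at matches to the METTL16 motif. MAT2A has 5 marks over 1508 nt and the other 7 genes have none.

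The motif GGACT, a common form of the sequence that METTL3 and METTL14 methylate, occurred 2 times in the 2819 nt of the MAT2A transcript, or 0.71 times per kb. The median over the 19487 genes was 0.928 per kb. MAT2B had no GGACT in 3409 nt, METTL16 had 3 in 5711 nt, AHCY had 1 in 2366 nt and MTR had 12 in 10529 nt. At least 1 match was present in 89.1% of the genes.

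MAT2A fell in shMETTL3 cells. MAT2A was at 708.7 and 646.0 CPM in shCTR, 539.0 and 510.4 CPM in shMETTL3, and 670.8 and 645.0 CPM in shMETTL14 cells. Both shMETTL3 libraries were below all 4 other libraries, while those of shCTR and shMETTL14 overlapped. Of all genes tested, 56.0% had no overlap between shMETTL3 and shCTR libraries. The means were 677.3 ± 44.4 CPM (SD, n = 2) in shCTR and 524.7 ± 20.2 CPM (SD, n = 2) in shMETTL3 cells. This is a log2 fold change of -0.37 (standard error 0.0593, 95% interval -0.49 to -0.24), a level 0.775 times that of shCTR, with an adjusted p of 2.72e-04 in edgeR's quasi-likelihood test. This threshold was passed with a lower level in shMETTL3 by 7.73% of all genes tested. In bulk RNA, fewer cells of a type and less RNA per cell cannot be told apart. MAT2A was called in all 13 alternatives that were run. In 6 of them a library was left out, so a group of 1 library borrowed its spread from the others. With each library left out in turn its log2 fold change lay between -0.44 and -0.30.

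In shMETTL14 cells MAT2A was at 657.9 ± 18.2 CPM (SD, n = 2). Its log2 fold change from shCTR was -0.04 (standard error 0.0591), with a 95% interval from -0.17 to 0.08 and an adjusted p of 0.748 in the edgeR test. The interval leaves room for a fall to 0.892 of the shCTR level and for a rise to 1.06 times that level. The direct test of shMETTL3 against shMETTL14 gave a log2 difference of -0.33 (95% interval -0.45 to -0.20, edgeR adjusted p = 8.37e-04). The shMETTL3 and shMETTL14 libraries thus differed in MAT2A. Lower calls in shMETTL3 made up 5.49% of the genes in that test, and 56.7% had libraries that did not overlap between the knockdowns. The paper's supplement lists a single shRNA against METTL3 and no sequence for METTL14. Loss of either writer cannot be told apart from off-target or cell line effects here.

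METTL16 (ENSG00000127804, chromosome 17, 2405562 to 2511891, minus strand) was at 44.5 and 40.4 CPM in shCTR, 45.2 and 34.9 CPM in shMETTL3, and 42.0 and 38.8 CPM in shMETTL14. The shMETTL3 libraries held both the highest and the lowest value of the 6. Its log2 fold change was -0.09 in shMETTL3 (95% interval -0.29 to 0.12, edgeR adjusted p = 0.606) and -0.07 in shMETTL14 (95% interval -0.28 to 0.13, edgeR adjusted p = 0.740). METTL16 was therefore not shown to differ, and a change to 0.817 or to 1.09 times the shCTR level lies within the interval for shMETTL3. Without the second shMETTL3 library its log2 fold change was 0.09, and without the first it was -0.28.

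MAT2B encodes the regulatory subunit that binds MAT2A. It was at 65.9 and 60.4 CPM in shCTR, 60.5 and 61.9 CPM in shMETTL3, and 57.9 and 63.6 CPM in shMETTL14, and the groups overlapped. The 95% intervals of its log2 fold change ran from -0.20 to 0.11 in shMETTL3 and from -0.21 to 0.09 in shMETTL14. MAT1A, the liver form of the catalytic subunit, had 2 to 10 reads per library and was not tested.

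**Figure D2:**
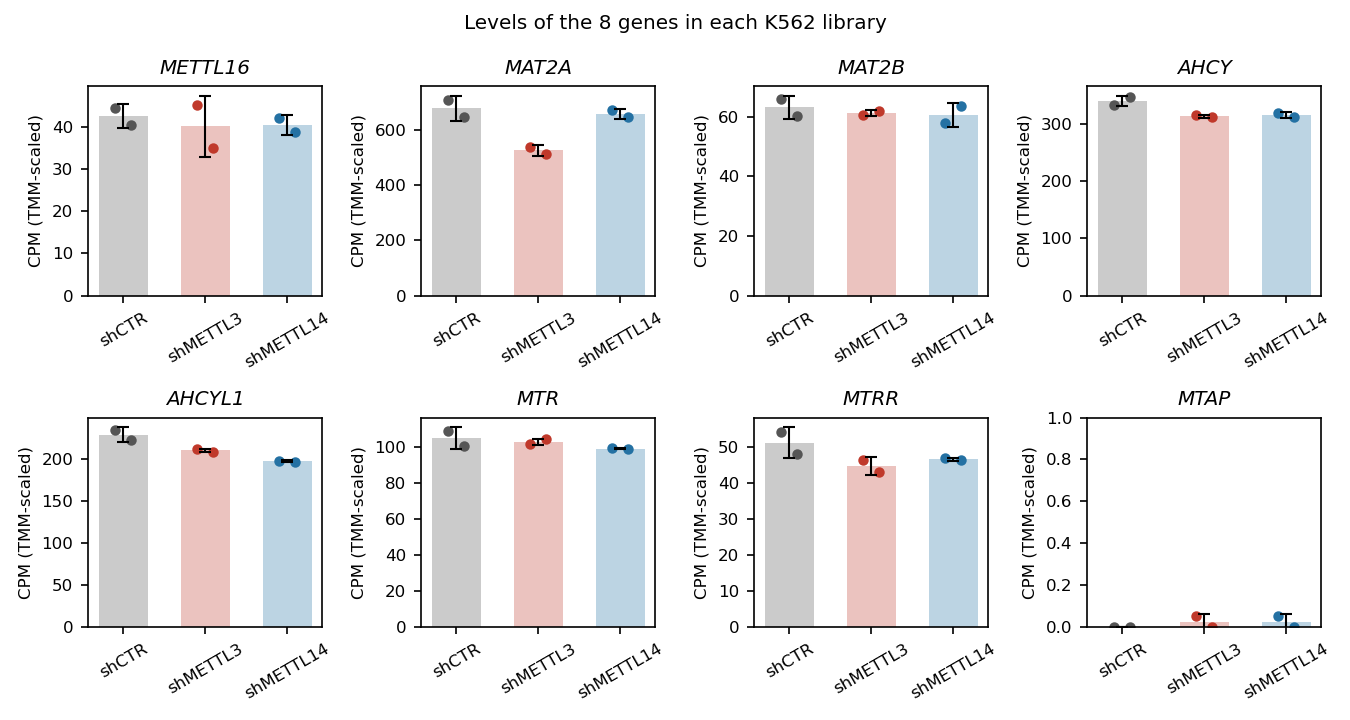
TMM-scaled CPM of the 8 genes by group, with 1 point per library, bars for the mean and whiskers for the SD (n = 2). Each panel has its own axis from 0. The shMETTL3 points of MAT2A, 539.0 and 510.4 CPM, lie below its other 4 points, and MTAP stays near 0.

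AHCY, which hydrolyses S-adenosylhomocysteine, was at 333.1 and 345.9 CPM in shCTR, 314.8 and 311.1 CPM in shMETTL3, and 318.4 and 311.8 CPM in shMETTL14. Every knockdown library was below both shCTR libraries. The log2 fold changes of -0.12 (edgeR adjusted p = 0.170) and -0.11 (edgeR adjusted p = 0.293) did not pass the threshold. Groups without overlap were common, at 56.0% of all genes tested for shMETTL3 and 48.9% for shMETTL14. With each library's smooth trend on GC and length taken out, the shMETTL3 value was -0.18 and passed (edgeR adjusted p = 0.00706).

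AHCYL1 encodes a relative of AHCY that binds the IP3 receptor and other partners. It was at 234.5 and 222.3 CPM in shCTR, 211.0 and 208.4 CPM in shMETTL3, and 197.7 and 196.0 CPM in shMETTL14. The groups were fully separated, with shMETTL14 lowest. Such separation was common, at 56.0% of all genes for shMETTL3 against shCTR, 48.9% for shMETTL14 against shCTR and 56.7% between the knockdowns. AHCYL1 fell in shMETTL14 cells by 0.21 on the log2 scale (standard error 0.0592, 95% interval -0.34 to -0.09, edgeR adjusted p = 0.0328), where 3.26% of all genes were called lower. This call was lost in 8 of 13 alternatives. Without filter, with library totals as scaling or with only the 4 libraries compared, the edgeR adjusted p was 0.0518, 0.0620 and 0.0670. It was 0.0951 without the first shCTR library, 0.0703 and 0.0700 without the first and the second shMETTL3 library, and 0.233 and 0.215 without the first and the second shMETTL14 library. For shMETTL3 the value was -0.12 (edgeR adjusted p = 0.167), and the knockdowns were not shown to differ (log2 difference 0.09, 95% interval -0.03 to 0.22, edgeR adjusted p = 0.372).

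MTR, the cobalamin-dependent methionine synthase, and MTRR, the reductase that keeps it active, close the cycle. MTR was at 109.1 and 100.6 CPM in shCTR, 101.7 and 104.2 CPM in shMETTL3, and 99.4 and 98.9 CPM in shMETTL14. Its shMETTL3 libraries lay within the shCTR range and its shMETTL14 libraries just below it. Of all genes tested, 48.9% had no overlap between shMETTL14 and shCTR libraries. The log2 fold changes were -0.03 (edgeR adjusted p = 0.824) and -0.08 (edgeR adjusted p = 0.520).

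MTRR was at 54.1 and 48.1 CPM in shCTR, 46.4 and 43.0 CPM in shMETTL3, and 46.8 and 46.3 CPM in shMETTL14. All knockdown libraries were below the shCTR libraries. Groups without overlap made up 56.0% of all genes tested for shMETTL3 and 48.9% for shMETTL14. The log2 fold change of -0.20 in shMETTL3 (95% interval -0.36 to -0.03) had an unadjusted p of 0.0205 and an adjusted p of 0.0927 in edgeR's test, which misses the threshold. Without the second shCTR library, the lower of that pair, the log2 fold change was -0.28 and passed (edgeR adjusted p = 0.0144), while without the first it was -0.11 (edgeR adjusted p = 0.416). In shMETTL14 it was -0.14 (edgeR adjusted p = 0.335).

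**Figure D3:**
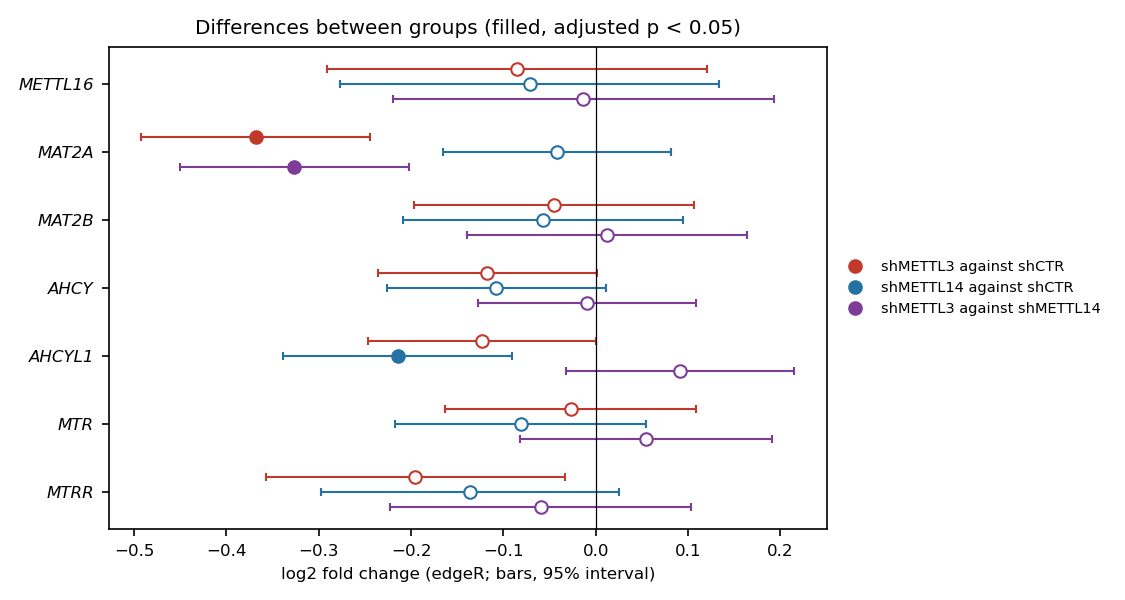
Log2 fold change of the 7 tested genes in 3 comparisons, from edgeR, with bars for the 95% interval and filled points for an adjusted p under 0.05. The filled points are MAT2A in shMETTL3 against shCTR (-0.37) and against shMETTL14 (-0.33), and AHCYL1 in shMETTL14 against shCTR (-0.21).

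Of the 7 tested members, 1 was called in each comparison, and each was a lower level in the first-named group. That is 14.3%, beside 16.5% of all genes for shMETTL3 against shCTR, 6.69% for shMETTL14 against shCTR and 12.1% for shMETTL3 against shMETTL14. No member was called higher in edgeR, and higher calls made up 8.73%, 3.43% and 6.65% of all genes. The count of members called is thus near the background or rests on 1 gene. Against shCTR, all 7 fitted values were below 0 in both knockdowns, with medians of -0.12 and -0.08 where the medians of all genes were 0.00299 and -1.4e-04. Both comparisons use the same shCTR libraries. With library totals alone as scaling, the median of all genes in shMETTL3 moved to 0.0584, and MAT2B and MTR were at 0.0100 and 0.0283, above 0 but still below that median. With the GC and length trend removed MAT2B was at 0.069, above the median of all genes (0.00108).

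Divided by the summed exon length of each gene, the order of levels was the same in every library. MAT2A was highest, at 151.0 ± 9.89 CPM per kb in shCTR (SD, n = 2), above 98.7% of the tested genes. AHCY followed at 87.2 and AHCYL1 at 44.7 CPM per kb. MAT2B at 12.3, MTR at 9.22, MTRR at 7.87 and METTL16 at 4.75 CPM per kb were lower, METTL16 standing above 52.2% of the tested genes. No neighbours in this order overlapped over the 6 libraries, the closest being MTR (8.69 to 9.59) and MTRR (6.61 to 8.33 CPM per kb). At its lower level in shMETTL3 cells, 116.9 ± 4.50 CPM per kb (SD, n = 2), MAT2A was still above 98.4% of the tested genes.

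MTAP, which cleaves the methylthioadenosine left by polyamine synthesis and returns its methylthio group to methionine, was at the floor. It had 0 and 0 reads in shCTR, 1 and 0 in shMETTL3, and 1 and 0 in shMETTL14. In the libraries with 0 reads, with 3 reads taken as the limit that such a count allows, the level could be up to 0.157 CPM. This covers counting error only. MTAP lies on the plus strand of chromosome 9 from 21802543 to 21937651. K562 is known to have lost a segment of 9p21 with CDKN2A and its neighbours. Between FOCAD and ELAVL2 in the same annotation stand 23 protein-coding genes, MTAP included, and 17 of them had no read in any library. No gene there exceeded 2 reads in a library. CDKN2A had 1 read in all, and CDKN2B, KLHL9 and DMRTA1 had 0. Many of the 23 are interferon genes, which cells transcribe mainly on infection. On one side FOCAD had 64 to 129 reads per library. On the other, ELAVL2, a neuronal gene, had 0, TUSC1 and IZUMO3 had at most 1, and CAAP1 had 739 to 883.

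**Figure D4:**
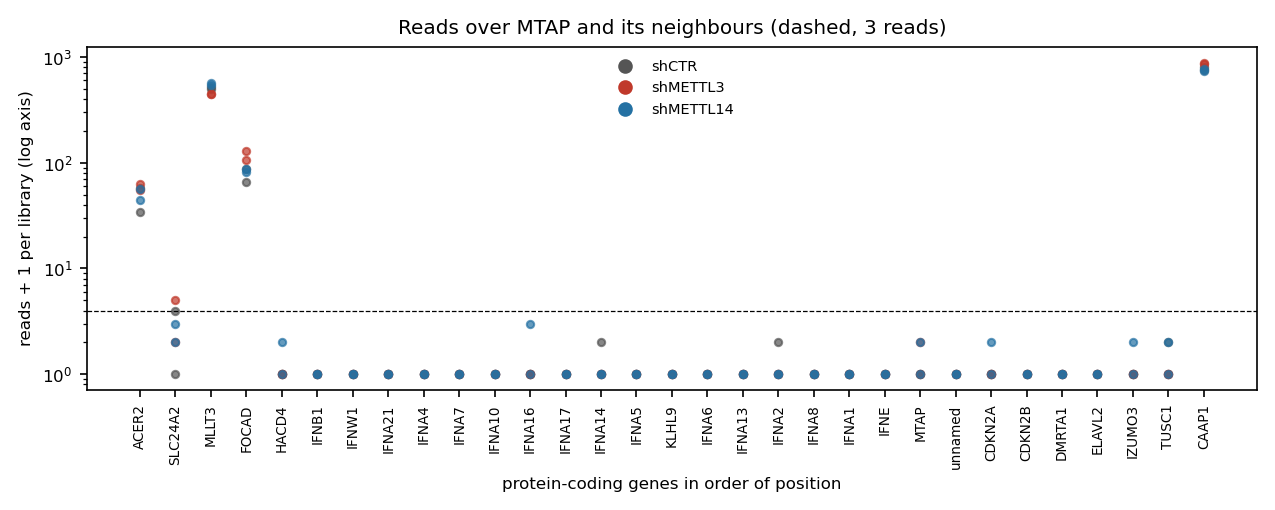
Reads plus 1 per library (log axis) for protein-coding genes in order of position around MTAP, colored by group, with a dashed line at 3 reads. From HACD4 to DMRTA1 no point passes 2 reads, while FOCAD and CAAP1 have at least 64 and 739 reads in every library.

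The wider pathway was followed in a list of 61 genes, the members included, of which 55 were tested. Without the members, 48 were tested. In shMETTL3 cells 3 of these rose and 6 fell, and in shMETTL14 cells 1 rose and 9 fell. These are 18.8% and 20.8% of the genes, beside 16.5% and 6.69% of all genes tested. Their median log2 fold changes were -0.06 and -0.06. With the members included, 3 rose and 7 fell in shMETTL3, and this balance depended on the scaling, with 8 higher and 4 lower under library totals alone and 1 higher and 14 lower with the GC and length trend removed. Of the pathway calls, members included, 1 of 10 in shMETTL3 (MAT2A) and 3 of 11 in shMETTL14 (SRM, MTHFD2 and NUDT21) held with any library left out. The changes below are for the full set of 6 libraries. The other calls were each lost without at least 1 library, most often a library of the knockdown itself. Without the second shMETTL3 library ADK, APIP, SAT1, SMOX, MTHFD2, ALDH1L2, SLC7A5 and NUDT21 lost theirs in shMETTL3, and without the first ADK, APIP, SMOX, CBS, MTHFD2 and ALDH1L2 did. Without the first shMETTL14 library APIP, ODC1, SAT1, SMOX, CBS and ALDH1L1 lost theirs in shMETTL14, and without the second ODC1, SAT1, SMOX and CTH did. Without the first shCTR library SMOX, MTHFD2 and SLC7A5 lost their calls in shMETTL3 and SAT1 and ALDH1L1 in shMETTL14, and without the second CBS and ALDH1L2 lost theirs in shMETTL3. SMOX and ALDH1L2 in shMETTL3 were also lost without either shMETTL14 library.

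Among genes named with MAT2A mRNA processing, NUDT21, a subunit of the cleavage factor CFIm, was at 342.5 and 323.4 CPM in shCTR, 276.7 and 277.0 CPM in shMETTL3, and 254.7 and 257.1 CPM in shMETTL14. It was lower in every knockdown library, with log2 fold changes of -0.27 (edgeR adjusted p = 0.00343) and -0.38 (edgeR adjusted p = 2.90e-04). Groups without overlap made up 56.0% and 48.9% of all genes tested. The shMETTL3 call was lost without the second shMETTL3 library (edgeR adjusted p = 0.0603). CPSF6, the other CFIm subunit listed, and YTHDC1, a nuclear m6A reader, were not called in either knockdown.

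Downstream of S-adenosylhomocysteine, ADK, the kinase that removes adenosine, fell in shMETTL3 cells by 0.31 on the log2 scale (edgeR adjusted p = 0.00608). In shMETTL14 ADK was at -0.21 (edgeR adjusted p = 0.0981), and the knockdowns were not shown to differ in it (edgeR adjusted p = 0.417). CBS and CTH carry homocysteine to cysteine by transsulfuration. CBS was at 162.5 and 171.1 CPM in shCTR, 119.7 and 152.6 CPM in shMETTL3, and 118.8 and 134.5 CPM in shMETTL14, and fell by 0.29 (edgeR adjusted p = 0.0263) and 0.40 (edgeR adjusted p = 0.00839) on the log2 scale. In shMETTL3 the value of CBS was -0.13 without the first library of that group and -0.48 without the second, and the call was also lost in 3 of 7 other settings (highest adjusted p 0.260, in DESeq2). GRCh38 holds a near-identical copy of CBS, so its count is uncertain. CTH fell in shMETTL14 by 0.37 on the log2 scale (edgeR adjusted p = 0.00176). In shMETTL3 CTH was at -0.18 (edgeR adjusted p = 0.0724), and the knockdowns were not shown to differ in it (edgeR adjusted p = 0.0772).

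In methionine salvage, APIP, an enzyme that acts after MTAP, fell by 0.25 in shMETTL3 (edgeR adjusted p = 0.0174) and by 0.33 in shMETTL14 (edgeR adjusted p = 0.00536) on the log2 scale. MRI1, ENOPH1 and ADI1 were tested and not called. IL4I1 had at most 8 reads per library and was not tested.

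In polyamine metabolism, SRM and SMOX were higher in shMETTL3 than in shMETTL14 cells, by 0.49 and 1.09 on the log2 scale in the direct test (edgeR adjusted p = 1.07e-04 and 2.56e-05). SRM, spermidine synthase, was at 71.4 and 81.1 CPM in shCTR, 79.4 and 78.8 CPM in shMETTL3, and 56.1 and 56.9 CPM in shMETTL14, where it fell by 0.43 on the log2 scale (edgeR adjusted p = 7.27e-04). ODC1, ornithine decarboxylase, fell there by 0.25 on the log2 scale (edgeR adjusted p = 0.00976). In shMETTL3 ODC1 was at -0.15 (edgeR adjusted p = 0.0889), and the knockdowns were not shown to differ in it (edgeR adjusted p = 0.262). SMOX, spermine oxidase, was at 8.05 and 8.98 CPM in shCTR, 11.7 and 11.1 CPM in shMETTL3, and 5.60 and 5.10 CPM in shMETTL14. It rose in shMETTL3 (log2 fold change 0.42, edgeR adjusted p = 0.0372) and fell in shMETTL14 (-0.67, edgeR adjusted p = 0.00824), and over 6 fits with a library left out the shMETTL3 value stayed between 0.34 and 0.50 but passed in 1. SAT1, the acetyltransferase of polyamine catabolism, fell in shMETTL3 (-0.46, edgeR adjusted p = 0.00221, but -0.29 without the second shMETTL3 library) and in shMETTL14 (-0.32, edgeR adjusted p = 0.0420). AMD1, which turns SAM into the aminopropyl donor, was not called.

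In the folate cycle, which supplies the methyl group for MTR, MTHFD2 fell in both knockdowns, by 0.20 (edgeR adjusted p = 0.0238) and 0.34 (edgeR adjusted p = 0.00116) on the log2 scale. ALDH1L2, its mitochondrial neighbour that oxidises formyl folate, rose in shMETTL3 (0.23, edgeR adjusted p = 0.0297). The cytosolic ALDH1L1 rose in shMETTL14 (0.60, edgeR adjusted p = 0.0118). ALDH1L1 was at 0.39 in shMETTL3 (edgeR adjusted p = 0.0691), and the knockdowns were not shown to differ in it (edgeR adjusted p = 0.351). The value of ALDH1L2 in shMETTL3 was 0.12 without the second shCTR library and 0.35 without the first. Of the 13 folate genes tested, 2 were called in each knockdown, or 15.4%, beside 16.5% and 6.69% of all genes. SLC7A5, a transporter that imports methionine with other large amino acids, rose in shMETTL3 from 743.8 ± 45.8 to 864.5 ± 46.3 CPM (SD, n = 2 each, log2 fold change 0.22, edgeR adjusted p = 0.0151). With the GC and length trend removed this call was lost (edgeR adjusted p = 0.315). MMACHC and MMADHC, which handle the cobalamin that MTR needs, were tested and not called in either knockdown.

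**Figure D5:**
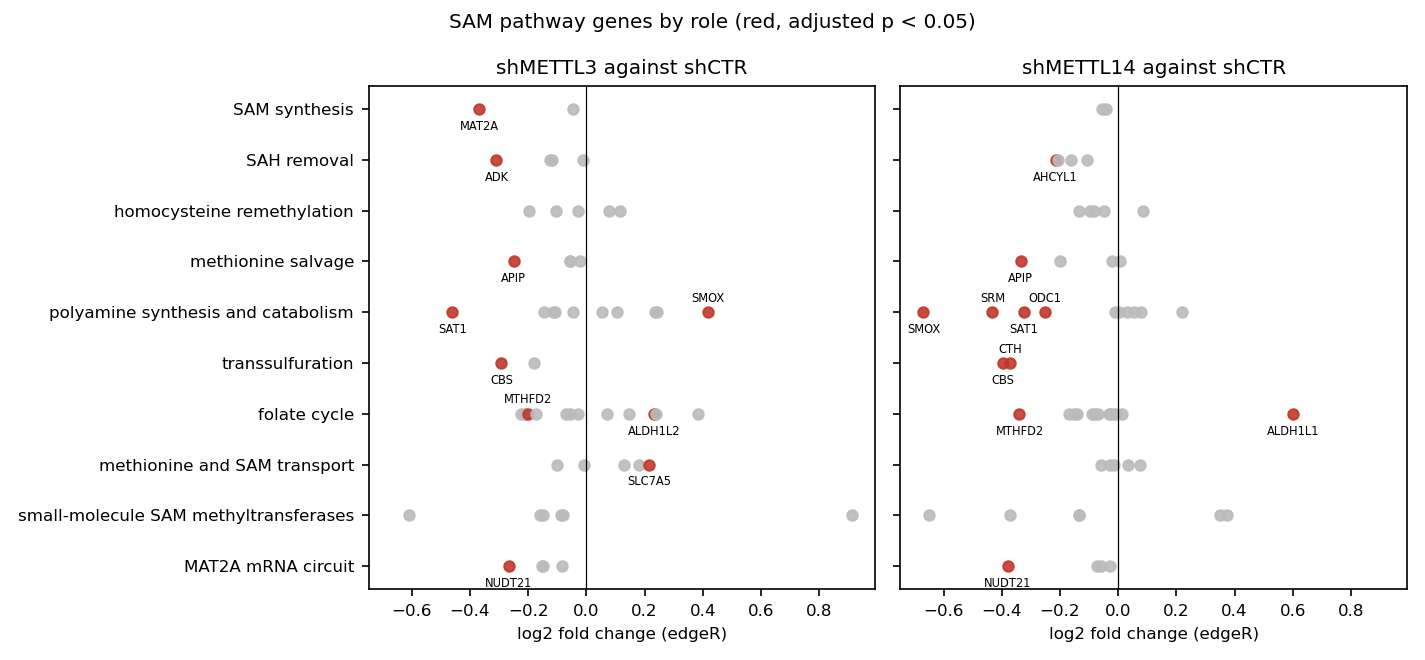
Log2 fold change against shCTR of the 55 tested pathway genes, grouped by role, in shMETTL3 (left) and shMETTL14 (right), with genes at an adjusted p under 0.05 in red. Of the 10 red points on the left 7 lie below 0 (4 of 12 with library totals alone as scaling, 14 of 15 with the GC and length trend removed), and of the 11 on the right 10 do.

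Over the 6 libraries, the genes whose log2 CPM followed MAT2A most closely, among 12302 genes with a mean of at least 50 reads, were SCAF11, PRPF8, AFF1, SUCLG1 and TFG, with Pearson's r from 0.993 to 0.995. PRPF8, a core protein of the spliceosome, was at 362.4 and 320.2 CPM in shCTR, 273.0 and 258.4 CPM in shMETTL3, and 334.1 and 320.5 CPM in shMETTL14. The genes nearest to METTL16 were RPL23AP82, MIR99AHG, LINC01446, THUMPD2 and PDIA6, with r from 0.966 to 0.971. MAT2A and METTL16 had an r of 0.444 with each other. These values share libraries and groups and were picked as the highest of many, so they are descriptions over 6 points.

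Gene-level counts do not tell MAT2A isoforms apart. The last intron of ENST00000306434.7 (85543035 to 85543669, 635 nt) precedes the exon with the 5 motifs. Of its bases, 574 are exonic in at least 1 other annotated MAT2A transcript, so reads from a retained last intron may be part of the MAT2A count. Of 6 MAT2A transcripts in the annotation, 3 are of the retained intron type, and which intron each retains was not checked. Pseudogenes named after members had 9 rows, of which 6 had no read and the highest had 6 reads in a library, MAT2AP1.

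Of the 308 other genes with the METTL16 motif in the 3'UTR, 222 were tested. In shMETTL3 cells 20 of them were higher and 34 lower, so that 15.3% were called lower beside 7.73% of all genes. Higher calls made up 8.73% of all genes, and 24.3% of the motif genes were called in either direction, beside 16.5%. In shMETTL14 cells 6 were higher and 6 lower, or 2.70% lower beside 3.26%, and 5.41% were called beside 6.69%. The motif genes are all coding, while the genes tested include noncoding ones, and shares over coding genes alone were not taken. The tested motif genes had longer 3'UTRs, with a median of 3499 nt against 1235 nt for all tested coding genes, and the part of this length in the count was not tested. With a library left out, the share called lower in shMETTL3 ranged from 5.36% (all genes 2.24%) without the second shMETTL3 library to 21.7% (all genes 9.74%) without the second shCTR library, where the share in shMETTL14 was 11.1% (all genes 5.19%). Without the first shCTR library the shMETTL3 share was 8.48% (all genes 5.81%). Among the 7 genes with 2 matches, ATP13A4 was not tested and MAP3K9, MBNL3, LARP4B, KCNJ6, EML5 and BTRC were not called in either knockdown. LARP4B, the best covered of these, had a log2 fold change of -0.12 in shMETTL3 (95% interval -0.26 to 0.01).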

How the data were processed

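The authors deposited whole-number read counts per gene, without normalization, for 61661 identifiers in 6 poly(A) libraries of K562 cells. The submitters' processing notes name HTSeq 0.6.1 and the build hg38, without roles; the aligner and annotation are not given in the sources used here. Whether counting used strand is not given either. Total counts per library were 19292574 to 20115304, and no molecular identifiers are mentioned, so limits at low reads cover counting error only. In R 4.3.3, edgeR 4.0.16 kept 17686 genes (filterByExpr, minimum count 10), scaled libraries by TMM, fitted all 6 libraries in 1 model and compared the groups with the quasi-likelihood test, with Benjamini-Hochberg adjustment over all genes and a threshold of 0.05. Reported intervals are at 95%. Alternatives were DESeq2 1.42.0, other scalings, no filter, only the compared groups, the replicate number as a block, removal of GC and length trends (mgcv 1.9.3) and each library left out. The steps were tested on simulated data with 2-fold changes and the same spread in every library. Smaller changes and unequal spread were not simulated. Symbols, coordinates, lengths and 3'UTRs came from a gene name table and GENCODE release 29. Named genes are all members, called genes of the pathway list, MTAP's neighbours, and the 5 genes most correlated with MAT2A or METTL16; genes with 2 motif matches, and pathway genes named although not called or not tested, were added after seeing the data. The search for motifs and the count of genes that hold one were also chosen then. The members and lists were chosen with earlier results of these data known, and the pathway list was written from general knowledge. The result of 1 pathway gene is not reported here.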

Additional observations from a re-analysis of the deposited data

Results flagged for a closer look

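Differences between the knockdowns, taken from the direct edgeR test of shMETTL3 against shMETTL14, passed the threshold for 6 of the 55 tested pathway genes, beside 12.1% of all genes tested. MAT2A was lower in shMETTL3 cells, with a log2 difference of -0.33. SRM and SMOX, both of polyamine metabolism, were higher in shMETTL3 by 0.49 and 1.09 on the log2 scale. SHMT1 and ALDH1L2 of the folate cycle were higher by 0.27 and 0.39. HNMT, histamine methyltransferase, differed by -0.96, at 21 to 46 reads per library. With each library left out in turn, MAT2A, SRM, SMOX and ALDH1L2 kept their calls, while SHMT1 and HNMT kept theirs in 2 of 6 fits each (highest adjusted p 0.389 and 0.326).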

How the results depend on the processing

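Of 273 values of the members under alternatives, 245 kept their direction and side of the threshold. The fall of MAT2A in shMETTL3 cells passed in all 13 alternatives, as did its difference from shMETTL14. The cause of the changes below was not tested. Members called in shMETTL3 against shCTR numbered 2 with the GC and length trend removed (AHCY joins MAT2A) and 1 to 2 with a library left out, 2 without shCTR replicate 2 (MTRR joins). In shMETTL14 against shCTR the number was 0 with library totals alone, without filter or with only the 4 libraries compared, and 0 to 1 with a library left out, 1 only without shCTR replicate 2; DESeq2 called AHCYL1. Over all genes, DESeq2 called 1752, 703 and 1229 in place of 2912, 1184 and 2148 in the 3 comparisons, and without filter 766 were called in shMETTL14 against shCTR. With library totals alone, 2158 genes were higher and 858 lower in shMETTL3 against shCTR, in place of 1544 and 1368. The pathway list had 2 to 18 calls in shMETTL3 against shCTR with a library left out (2 and 5 without shMETTL3 replicates 2 and 1, 18 without shCTR replicate 2), and 4 to 14 in shMETTL14 against shCTR (4 and 6 without shMETTL14 replicates 1 and 2). Between the knockdowns it had 10 with only the 4 libraries compared, 12 with the GC and length trend removed, and 4 to 10 with a library left out (10 without either shCTR library).

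Signs turned only for values that were not called. With library totals alone, which moved the median of all genes to 0.0584 in shMETTL3 against shCTR and to 0.0281 between the knockdowns, these were MAT2B (0.0100) and MTR (0.0283) in the former and METTL16 (0.016) and AHCY (0.0199) in the latter, all still below those medians. With the GC and length trend removed they were MAT2B in shMETTL3 (0.069) and in shMETTL14 (0.00552). With a library left out, the ranges that crossed 0 in shMETTL3 against shCTR were -0.28 to 0.0908 for METTL16, -0.11 to 0.0158 for MAT2B and -0.0869 to 0.0297 for MTR. In shMETTL14 against shCTR they were -0.11 to 0.026 for MAT2A and -0.13 to 0.00841 for MAT2B. Between the knockdowns they were -0.21 to 0.16 for METTL16, -0.0562 to 0.0823 for MAT2B and -0.0237 to 0.00344 for AHCY. A group left with 1 library was assumed to vary like the others. Replicate counts differed more in shCTR, however. Their mean chi-square per gene against sampling noise was 5.52 in shCTR, 3.1 in shMETTL3 and 2.59 in shMETTL14. Fits without a shCTR library may therefore give p-values that are too small.

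The replicate numbers did not pair the libraries: differences between replicates 1 and 2 correlated over genes by 0.0614, 0.00511 and -0.02 between groups. With the replicate block, MAT2A was at -0.37 in shMETTL3 (edgeR adjusted p = 1.17e-05), no member changed its call, and 3264 genes were called in place of 2912.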
